A study of Mus musculus with 24 samples.

Results

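Liver RNA of db/db mice was compared with liver RNA of db/+ mice over 3 drinks, across all expressed genes. The libraries were chosen by their titles: of 24 libraries in the series, the 12 titled as liver entered, 6 titled db/db and 6 titled db/+. The series set out to examine how 3M-Brazzein, a sweet-tasting protein, and sucrose affect brain and liver in a leptin receptor model. All mice were male and of the strain given as C57/BL6, and the treatment entry of every sample read 16 weeks. Libraries are named by genotype, drink and replicate number, as in db/+ water 1. Each genotype was represented by 2 libraries per drink, namely water, sucrose and brazzein. The db/db mice carry the defective leptin receptor allele on both chromosomes, and the db/+ mice carry that allele beside a functional copy, so the controls are heterozygotes and not wild type. A separate genotype entry reads db/db for all 12 livers and contradicts 6 titles, and the titles were followed. Nothing in the labels says whether replicates came from separate mice, so p-values measure the spread between these samples, which may be technical.

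Leptin is the fat-tissue hormone that limits food intake, acting mainly on neurons through the long form of its receptor. Mice without that receptor overeat, become obese and carry high blood insulin and glucose. Insulin drives the liver to make fat from sugar through the regulator SREBP-1c, excess sterol and carbohydrate act through further regulators, and the pulsed growth hormone of males keeps a male set of liver genes on.

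The totals ran from 60384569 to 79385804 estimated counts per liver library, and 19352 genes passed the filter on low counts. The first principal component of log2 levels, with 28.1% of the variance, placed all 6 db/db libraries between 25.6 and 52.2 and all 6 db/+ libraries between -59.4 and -10.3. The value of -10.3 belonged to db/+ brazzein 2, and db/db brazzein 2 stood apart on the second component (18.4% of the variance) at 85.0. Mitochondrial ribosomal RNA made up 0.263% to 0.336% of the counts of a db/db library and 0.578% to 1.29% of those of a db/+ library, with the lowest db/+ value again in brazzein 2. Its part in the results below was not tested. The tissue label was checked with 10 hepatocyte markers, whose summed level ran from 77732 to 102277 CPM (counts per 1000000 of the TMM-scaled library size) in db/+ and from 74997 to 104588 CPM in db/db, so that the ranges overlapped. Of these markers, 2 fell (20%) and 0 rose (by edgeR, 0 at an unadjusted p under 0.05, and 0 by DESeq2). At an unadjusted p under 0.05, 6 were lower, and the median log2 was -0.487. Their part in the other results was not tested. In bulk tissue, fewer cells of a type and less RNA per cell cannot be told apart. Of 6 defining markers of fat tissue, Adipoq and Lep were too low to be tested, and of the other 4, 1 was higher and 1 lower. All 6 together held 0.946 to 5.096 CPM in db/db and 2.704 to 5.02 CPM in db/+. Of 9 pancreas markers, 7 were too low to be tested and the other 2 did not pass.

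**Figure D1:**
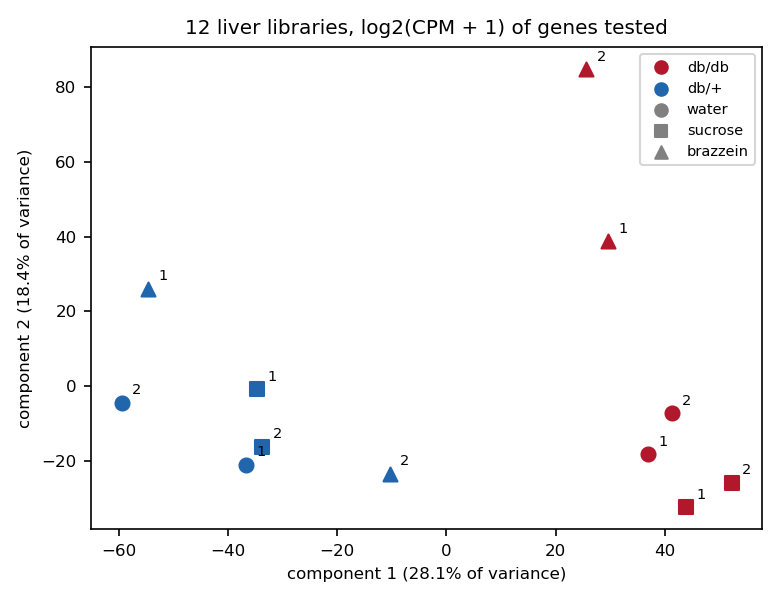
Principal components 1 (horizontal, 28.1% of variance) and 2 (vertical, 18.4%) of log2(CPM + 1) for the 12 liver libraries. Colour gives the genotype, symbol the drink and the number the replicate, and the 2 genotypes lie on opposite sides of 0 on component 1.

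The genotypes differed in 2811 of 19352 genes tested (14.5%), by edgeR's quasi-likelihood test with drink as a covariate and a Benjamini-Hochberg adjusted p under 0.05. In db/db, 1489 genes were higher (7.69%) and 1322 lower (6.83%). The median absolute log2 difference of the genes that passed was 1.02, against a median log2 of -0.03 over all genes tested. At least 2-fold changes were seen in 802 higher and 640 lower genes, and at least 4-fold changes in 368 and 209. For 1463 of the genes that passed (7.56% of those tested), the 6 libraries of either genotype lay above all 6 of the other. Over all genes tested, such groups without overlap were found in 8.43%. By mean level, in CPM not divided by transcript length, the split was uneven: of 140 genes with a mean of at least 1000 CPM, 51 were lower (36.4%) and 15 higher (10.7%), whereas of 6788 genes under 1 CPM, 316 were lower (4.66%) and 328 higher (4.83%). Without the major urinary protein genes, 34 of 123 of the most abundant class were lower (27.6%). The total depended on single libraries, with 1655, 1777, 1702, 1809 and 1846 genes without db/db water 2, db/db water 1, db/db sucrose 2, db/+ water 2 and db/+ brazzein 1. With library totals alone in place of TMM factors, the split was 2341 higher and 764 lower and the median log2 of all genes moved from -0.03 to 0.13.

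**Figure D2:**
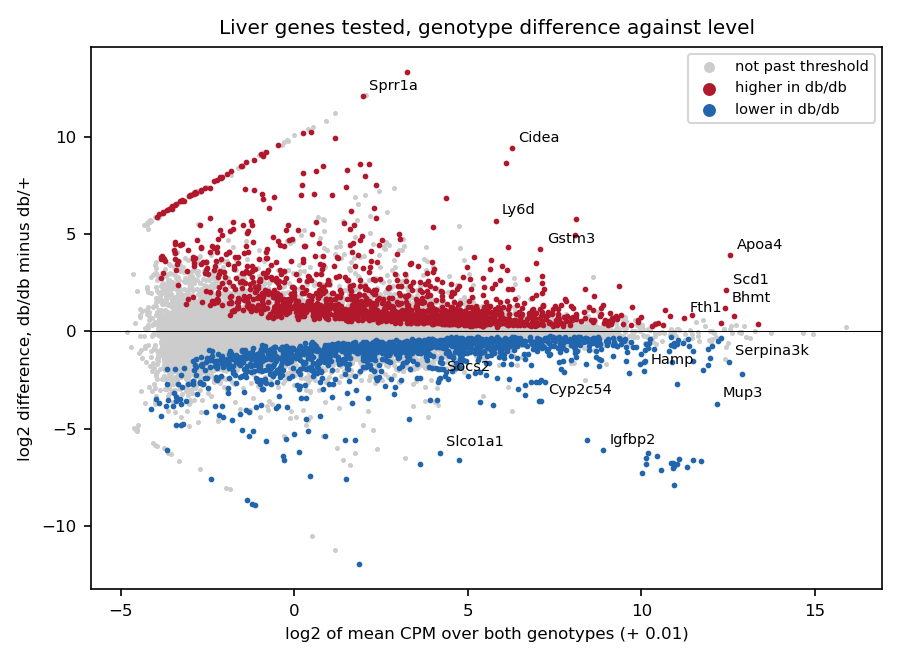
Each point is a liver gene tested, placed by the log2 of its mean CPM over both genotypes (horizontal) and its log2 difference, db/db minus db/+ (vertical). Red marks the 1489 genes higher and blue the 1322 lower in db/db, grey the rest, and the cluster of blue points at the lower right holds mostly major urinary protein genes.

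Lepr, the gene altered in this model, ran from 1.901 to 18.9 CPM (median 4.71) in db/+ and from 0.6905 to 2.504 CPM (median 1.502) in db/db. The ranges overlapped, and the difference passed (log2 difference -1.94, SE 0.45, edgeR adjusted p = 0.0194). The call was lost without db/+ water 2, db/db sucrose 2 or db/db water 2 (edgeR adjusted p up to 0.0603). It was also lost without all water libraries, without all sucrose libraries and when tested against a fold of 1.5. The highest db/+ values were those of sucrose 1 and 2 (13.97 and 18.9 CPM). The log2 difference of Lepr was -2.16 on water, -3.02 on sucrose and -0.60 on brazzein, and the interaction with drink did not pass (edgeR adjusted p = 0.663). The count pools all receptor forms and so does not check the mutation itself. Around Lepr, 20 protein-coding neighbours were looked up in the RefSeq gene order and 11 of them were tested. Of these 11, Leprot (log2 0.49, SE 0.14), an endosomal protein that affects receptor trafficking, and Ube2u (log2 0.74, SE 0.22) passed, with edgeR adjusted p-values of 0.0485 and 0.0463. Leaving out 1 library ended the Leprot call for 12 of 12 libraries and the Ube2u call for 11, with edgeR adjusted p-values up to 0.0998 and 0.118.

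The 12 higher genes described next in part were chosen for the greatest log2 difference, at least 5 CPM and no overlap between genotypes, so their values are a description of that choice. Several of them were near 0 in control livers. Ly6d, a small membrane-anchored protein of the Ly6 family, ran from 1.43 to 3.51 CPM (median 2.06) in db/+ and from 64.2 to 170.1 CPM (median 100.8) in db/db. The log2 difference was 5.69 (SE 0.34). Sprr1a, a cornified-envelope protein of stressed epithelia, was listed at 0 in each db/+ library and reached 5.31 to 11.7 CPM in db/db. Sdcbp2, a syntenin scaffold protein, had a median of 0.151 CPM in db/+ (0.1002 to 0.337) and 9.49 CPM in db/db (6.899 to 13.9). St3gal6, a sialyltransferase of the Golgi, had a median of 0.109 CPM in db/+ (0.0896 to 0.337) and 6.21 CPM in db/db (2.25 to 8.89). Hao2, a peroxisomal hydroxy acid oxidase, was at 5.16 to 16.1 CPM in db/db and at 0 to 0.371 CPM in db/+.

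**Figure D3:**
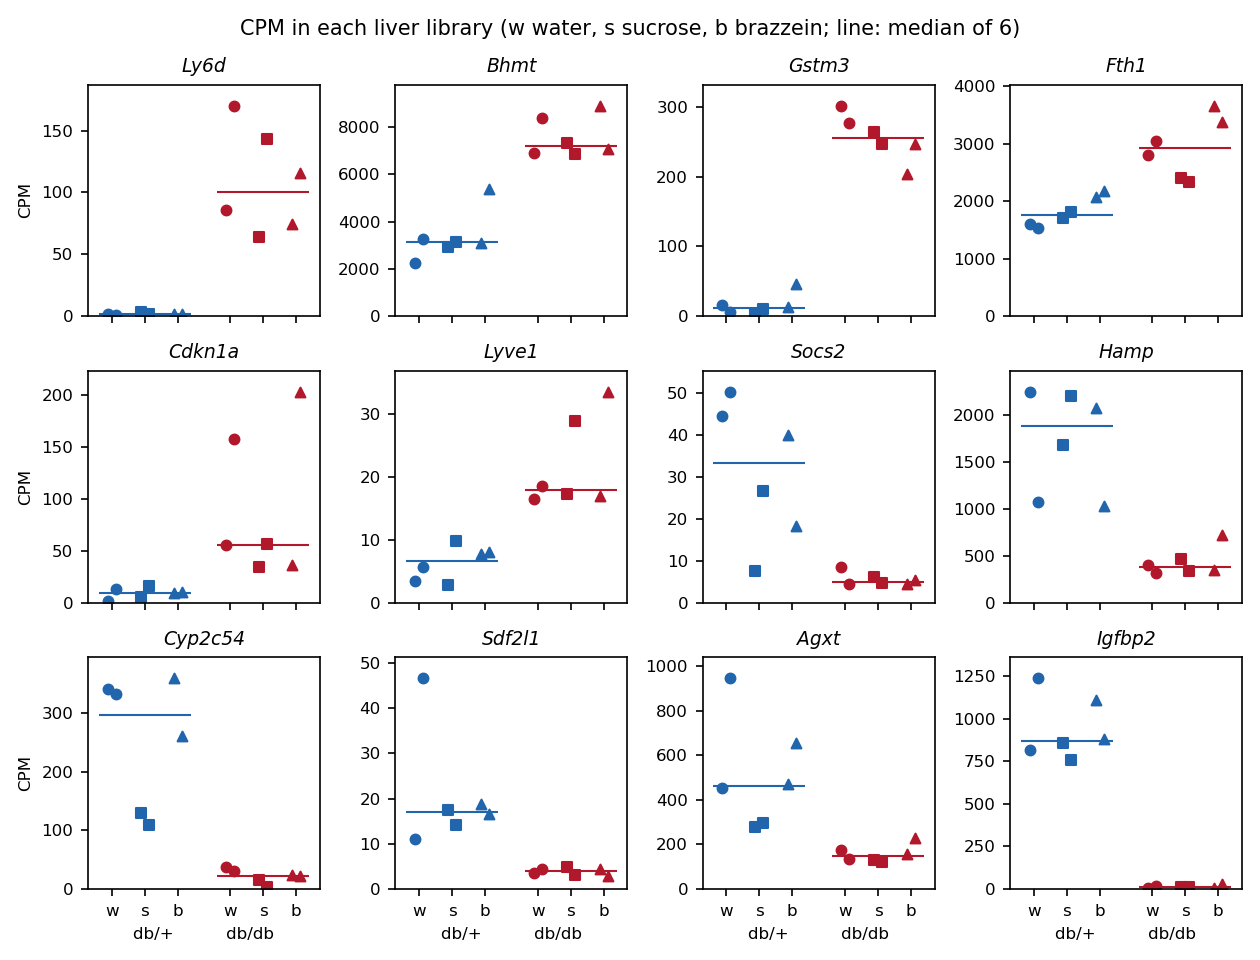
CPM of 12 genes in each liver library, with a panel per gene, with db/+ in blue on the left and db/db in red on the right, and circles, squares and triangles for water, sucrose and brazzein. Horizontal lines are medians of 6 libraries. In 11 panels the db/db points lie wholly above or wholly below the db/+ points, and in the Socs2 panel a db/+ sucrose library at 7.47 CPM lies within the db/db range. The genes were picked from the named genes, some of them chosen for having no overlap, so this separation is in part a result of the choice. Over all genes tested, 8.43% had no overlap.

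Genes chosen likewise for the greatest rise in mean CPM without overlap, whose separation is again part of the choice, included enzymes and carriers of metabolism. Bhmt, which remethylates homocysteine with betaine, ran from 2244 to 5359 CPM (median 3133) in db/+ and from 6876 to 8902 CPM (median 7194) in db/db. The highest db/+ library was db/+ brazzein 2, and it still lay under the lowest db/db library (log2 difference 1.20, SE 0.17, edgeR adjusted p = 0.00213). H2-Q10, a secreted class I molecule made by hepatocytes, had a median of 1947 CPM in db/+ (1832 to 2313) and 3365 CPM in db/db (3147 to 4282), a log2 difference of 0.83 (SE 0.08, edgeR adjusted p = 0.000350). Fth1, the heavy chain of ferritin that stores iron, ran from 1539 to 2187 CPM (median 1763) in db/+ and from 2337 to 3665 CPM (median 2932) in db/db, again without overlap (log2 difference 0.68, SE 0.09, edgeR adjusted p = 0.00155). Slc25a47, a carrier of the inner mitochondrial membrane found mainly in liver, rose as well (log2 difference 0.76, SE 0.15, edgeR adjusted p = 0.0109).

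Most of the genes that make fatty acids rose. Of 15 tested members, 9 rose (60%) and 1 fell (6.67%). Over all genes, 7.69% were higher and 6.83% lower, and the shares of the lists that follow stand beside these. The median log2 was 1.16, beside -0.03 over all genes. Counts of 1 or 2 members, here and in the lists that follow, often moved by more than 1.5 times when a single library was left out, and for larger counts the libraries that moved them are named. Me1, the malic enzyme that supplies NADPH, ran from 85.2 to 145 CPM (median 124) in db/+ and from 249.9 to 447 CPM (median 313) in db/db. Its ranges were apart (log2 difference 1.54, SE 0.19, edgeR adjusted p = 0.00118). Acly, which makes cytosolic acetyl-CoA from citrate, had a median of 37.999 CPM in db/+ (26.6 to 47.1) and 87.6 CPM in db/db (52.6 to 134), also without overlap (log2 difference 1.24, SE 0.19, edgeR adjusted p = 0.00316). Of 18 genes of elongation and desaturation, 8 rose (44.4%) and 2 fell (11.1%), with a median log2 of 0.63. Elovl6, which lengthens palmitate, ran from 1.36 to 30.8 CPM (median 17.9) in db/+ and from 56.6 to 162 CPM (median 96.8) in db/db (log2 difference 2.63, SE 0.58, edgeR adjusted p = 0.0156), with no shared values between the genotypes. Fads1, the delta-5 desaturase, rose by 0.72 on the log2 scale (SE 0.13). Elovl2, which lengthens polyunsaturated chains, went the other way, with a median of 581 CPM in db/+ (433 to 840.4) and 302 CPM in db/db (216 to 387), a log2 difference of -0.92 (SE 0.14, edgeR adjusted p = 0.00318).

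Among genes of lipid droplets more rose than fell. Of 26 genes of lipid droplets and lipases, 9 rose (34.6%) and 2 fell (7.69%), with a median log2 of 0.37, beside 7.69% and 6.83% over all genes. Hsd17b13, a protein of the hepatocyte lipid droplet, ran from 325 to 646 CPM (median 416) in db/+ and from 592 to 828 CPM (median 730.1) in db/db, and the ranges overlapped although the test passed (log2 difference 0.70, SE 0.12, edgeR adjusted p = 0.00618). Lipa, the acid lipase of lysosomes, had a median of 146 CPM in db/+ (116 to 180.01) and 245 CPM in db/db (188 to 288), a log2 difference of 0.75 (SE 0.09, edgeR adjusted p = 0.00111). Of 23 genes of fatty acid uptake and binding, 5 rose (21.7%) and 3 fell (13%). Their summed level ran from 8014 to 10209 CPM (median 9753) in db/db and from 8947 to 15294 CPM (median 13010.5) in db/+. Fabp4, a fatty acid carrier typical of fat cells and macrophages, ran from 6.15 to 13.2 CPM (median 9.34) in db/+ and from 22.6 to 49.1 CPM (median 25.8) in db/db without overlap (log2 difference 1.60, SE 0.22, edgeR adjusted p = 0.00211). The transport protein Slc27a4 rose by 1.18 on the log2 scale (SE 0.18), while its relative Slc27a1 fell by 1.25 (SE 0.26). Of 26 genes that assemble triglyceride and phospholipid, 2 rose (7.69%) and 1 fell (3.85%), at or under the shares of all genes, and both counts moved by more than 1.5 times, over 1 to 6 and 0 to 2, when single libraries were left out.

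Of 24 apolipoprotein and assembly genes, 2 rose (8.33%, near the 7.69% of all genes) and 6 fell (25%, beside 6.83% of all genes). Apoc2, the cofactor of lipoprotein lipase, ran from 54.9 to 272 CPM (median 103) in db/+ and from 391 to 724 CPM (median 489) in db/db. The highest db/+ library was db/+ sucrose 1, and it lay under all db/db libraries (log2 difference 2.18, SE 0.28, edgeR adjusted p = 0.00146). Apoa5, which favours triglyceride clearance from blood, ran from 2226 to 3188 CPM (median 2870.3) in db/+ and from 1472 to 2323 CPM (median 1922) in db/db and its ranges overlapped (log2 difference -0.57, SE 0.12, edgeR adjusted p = 0.01503). This list had 2 lower members when db/+ water 2, db/db sucrose 2 or db/db water 2 was left out and 3 when db/+ brazzein 1, db/db sucrose 1 or db/db water 1 was left out.

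Cholesterol synthesis was among the lists with the highest share of higher genes. Of 24 genes, 11 rose (45.8%) and 0 fell (by edgeR, 1 at an unadjusted p under 0.05, and 1 by DESeq2). Their median log2 was 0.88. Fdps, which makes farnesyl pyrophosphate, ran from 12.7 to 42.3 CPM (median 30.4) in db/+ and from 84.8 to 206 CPM (median 109) in db/db. The ranges stood apart (log2 difference 2.19, SE 0.32, edgeR adjusted p = 0.00266). Nsdhl, a late-step sterol dehydrogenase, had a median of 8.99 CPM in db/+ (5.995 to 15.8) and 38.2 CPM in db/db (28.7 to 47.7), a log2 difference of 1.999 (SE 0.24, edgeR adjusted p = 0.00111). Idi1, the isomerase before farnesyl synthesis, had a median of 8.78 CPM in db/+ (3.39 to 11.2) and 26.2 CPM in db/db (19.4 to 51.04), a log2 difference of 2.08 (SE 0.38, edgeR adjusted p = 0.00648). Sqle, the squalene epoxidase, rose by 2.01 on the log2 scale (SE 0.47) and Hmgcs1, the synthase that starts the path, by 1.36 (SE 0.19), each without overlap.

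The promoter of Hmgcs1 is shown because it is the only cholesterol-synthesis promoter in which a sterol regulatory element was matched. RefSeq promoters of GRCm38.p6, from 250 bases before to 50 bases after the start, were found for 16 of the 24 genes and searched on both strands. The element TCACNCCAC was matched in 1 of 16 (6.25%, against 1.22% of 27025 promoters) and the box CCAAT in 14 of 16 (87.5%, against 37.9%). Capitals mark the matches of these 2 motifs, which do not overlap, in the sequence on the plus strand at chr13:119690101-119690400.
Hmgcs1: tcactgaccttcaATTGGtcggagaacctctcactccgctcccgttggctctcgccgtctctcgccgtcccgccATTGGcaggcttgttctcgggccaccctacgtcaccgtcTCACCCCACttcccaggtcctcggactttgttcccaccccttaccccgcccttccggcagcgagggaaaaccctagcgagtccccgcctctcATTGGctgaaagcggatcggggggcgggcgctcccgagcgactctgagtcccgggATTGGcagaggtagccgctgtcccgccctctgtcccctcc

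Of 29 bile acid genes, 3 rose (10.3%) and 5 fell (17.2%), beside 7.69% and 6.83% of all genes. Cyp7b1, the enzyme of the alternative path and a male-biased gene, ran from 38.96 to 154 CPM (median 56.5) in db/+ and from 4.19 to 10.2 CPM (median 5.55) in db/db, far apart (log2 difference -3.60, SE 0.41, edgeR adjusted p = 0.000972). Abcc4, an export pump of the sinusoidal side, had a median of 1.49 CPM in db/+ (0.813 to 4.795) and 7.66 CPM in db/db (6.36 to 9.26), a log2 difference of 2.12 (SE 0.36, edgeR adjusted p = 0.00472). Slc51b, a subunit of the basolateral bile acid exporter, rose too (log2 difference 2.61, SE 0.52, edgeR adjusted p = 0.0102). Among lower members of this list, 3 passed without db/+ water 2, db/db sucrose 2, db/db water 1 or db/db water 2.

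In fatty acid oxidation more genes fell than rose. Of 35 genes on the list of peroxisomal and mitochondrial oxidation, 1 rose (2.86%) and 6 fell (17.1%), with a median log2 of -0.18. Over all genes, 7.69% were higher and 6.83% lower. Of the lower members, 2 are also on the male-biased list described below. Cyp4a10, a microsomal omega-hydroxylase and a classic target of the fatty acid sensor PPAR-alpha, ran from 1971 to 3567 CPM (median 2835.5) in db/+ and from 656 to 1840.2 CPM (median 865) in db/db. The genotypes were separate (log2 difference -1.57, SE 0.20, edgeR adjusted p = 0.00139). Ehhadh, a peroxisomal bifunctional enzyme, ran from 539 to 3087 CPM (median 1476) in db/+ and from 360.4 to 698 CPM (median 392) in db/db, with overlap (log2 difference -1.66, SE 0.30, edgeR adjusted p = 0.00645). Over the 8 Cyp4a genes summed, since close copies share reads, db/+ held 6376 to 10964 CPM and db/db 2178 to 5363 CPM. Of 9 ketone body genes, 2 rose (22.2%) and 0 fell (by edgeR, 0 at an unadjusted p under 0.05, and 0 by DESeq2). Of 49 nuclear-encoded respiratory chain genes, 2 rose (4.08%) and 1 fell (2.04%), under the shares of all genes. The ketone count was 1 when any of 9 single libraries was left out, and the respiratory chain count of 2 ran from 0 to 5.

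Of 28 glycolysis genes, 9 rose (32.1%) and 0 fell (by edgeR, 1 at an unadjusted p under 0.05, and 1 by DESeq2). Their median log2 was 0.48. Hk2, a hexokinase that normal hepatocytes carry at low level, ran from 0.294 to 1.01 CPM (median 0.725) in db/+ and from 5.31 to 15.7 CPM (median 7.21) in db/db. No value was shared (log2 difference 3.64, SE 0.35, edgeR adjusted p = 0.000367). Gpi1, the glucose phosphate isomerase, had a median of 160.3 CPM in db/+ (137 to 201) and 265 CPM in db/db (224 to 357), a log2 difference of 0.73 (SE 0.11, edgeR adjusted p = 0.00301). Eno1 and Pkm, an enolase and the pyruvate kinase of tissues other than liver, rose by 0.94 (SE 0.16) and 0.98 (SE 0.14) on the log2 scale. Of 13 fructose and polyol genes, 3 rose (23.1%) and 0 fell (by edgeR, 0 at an unadjusted p under 0.05, and 0 by DESeq2). Tkfc, the kinase that traps glyceraldehyde from fructose, had a median of 192 CPM in db/+ (148 to 337) and 470.05 CPM in db/db (424 to 711), a log2 difference of 1.28 (SE 0.21, edgeR adjusted p = 0.00428).

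Of 14 glycogen genes, 3 rose (21.4%) and 2 fell (14.3%), beside 7.69% and 6.83% of all genes. Pygl, the liver phosphorylase that breaks down glycogen, ran from 122 to 193 CPM (median 161) in db/+ and from 321 to 397 CPM (median 360.03) in db/db (log2 difference 1.19, SE 0.11, edgeR adjusted p = 0.000331), and the genotypes did not overlap. Gcgr, the glucagon receptor, ran from 181 to 325 CPM (median 285) in db/+ and from 91.4 to 158 CPM (median 133) in db/db, again separate (log2 difference -1.07, SE 0.17, edgeR adjusted p = 0.003801). Of 18 gluconeogenesis genes, 2 rose and 2 fell (11.1% each), near the shares of all genes. Pcx, the pyruvate carboxylase, had a median of 425 CPM in db/+ (319 to 598) and 768 CPM in db/db (645 to 875), a log2 difference of 0.77 (SE 0.16, edgeR adjusted p = 0.0111), and Mpc1, a subunit of the mitochondrial pyruvate carrier, rose by 0.52 on the log2 scale (SE 0.10). Crtc2, the coactivator that carries the glucagon signal to the nucleus, fell by 0.66 (SE 0.15).

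Genes of amino acid breakdown and of the methionine cycle were taken separately. Of 37 genes of amino acid breakdown, 5 fell (13.5%, beside 6.83% of all genes) and 0 rose (by edgeR, 3 at an unadjusted p under 0.05, and 1 by DESeq2). Agxt, which detoxifies glyoxylate with alanine, ran from 279 to 945 CPM (median 463) in db/+ and from 119 to 229.8 CPM (median 147) in db/db. The groups were apart (log2 difference -1.64, SE 0.22, edgeR adjusted p = 0.00186). Hpd, of tyrosine breakdown, had a median of 2135 CPM in db/+ (1894 to 3434) and 1205 CPM in db/db (898 to 1449.7), a log2 difference of -0.996 (SE 0.16, edgeR adjusted p = 0.00387), and Prodh2, of hydroxyproline breakdown, had a median of 194 CPM in db/+ (156 to 315) and 105 CPM in db/db (84.01 to 132), a log2 difference of -0.995 (SE 0.13, edgeR adjusted p = 0.00137). The count of lower members of this list was 3 without db/db brazzein 1, db/db sucrose 2 or db/db water 2. The count of 0 higher members was 1, 2 and 5 without db/+ brazzein 1, db/db brazzein 2 and db/+ brazzein 2. Of 22 methionine, serine and one-carbon genes, 5 rose (22.7%) and 2 fell (9.09%), Bhmt among the higher ones. This list had 2 higher members when db/+ water 1, db/db water 1 or db/db water 2 was left out and 3 when db/+ water 2, db/db brazzein 1 or db/db sucrose 2 was left out. Gamt, which makes creatine, had a median of 102 CPM in db/+ (72.9 to 147) and 201 CPM in db/db (156 to 274), a log2 difference of 1.01 (SE 0.14, edgeR adjusted p = 0.00231).

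Insulin and growth hormone signalling was examined at its receptors, adaptors and targets. Irs1, the insulin receptor substrate, ran from 13.8 to 24.2 CPM (median 23.2) in db/+ and from 1.74 to 12.4 CPM (median 8.69) in db/db (log2 difference -1.83, SE 0.36, edgeR adjusted p = 0.00992). No library was shared between the ranges. Of 27 insulin signalling genes, 1 rose and 1 fell (3.7% each), below the shares over all genes. Ghr, the growth hormone receptor, had a median of 288 CPM in db/+ (266 to 317) and 299 CPM in db/db (210.2 to 307), and did not pass (log2 difference -0.10, SE 0.12, edgeR adjusted p = 0.642). Socs2, an inhibitor that growth hormone induces, ran from 7.47 to 50.3 CPM (median 33.4) in db/+ and from 4.44 to 8.61 CPM (median 5.06) in db/db, and the lowest db/+ library, on sucrose, lay between the 2 highest db/db values (log2 difference -2.36, SE 0.37, edgeR adjusted p = 0.00357). Igfals, the subunit that holds IGF-1 in plasma, had a median of 116 CPM in db/+ (104 to 126) and 38.1 CPM in db/db (14.9 to 55.3), a log2 difference of -1.65 (SE 0.26, edgeR adjusted p = 0.00346). Of 21 genes of this axis, 4 fell (19%) and 0 rose (by edgeR, 1 at an unadjusted p under 0.05, and 0 by DESeq2).

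Male-biased genes fell and female-biased genes rose where they passed. Of 32 male-biased genes, 26 fell (81.2%) and 0 rose (by edgeR, 0 at an unadjusted p under 0.05, and 0 by DESeq2). Their median log2 was -2.73. Of 30 female-biased genes, 11 rose (36.7%) and 0 fell (by edgeR, 1 at an unadjusted p under 0.05, and 0 by DESeq2). Their median log2 was 1.67. Over all genes, 6.83% were lower and 7.69% higher. Cyp2u1, a P450 counted among the male-biased genes here, ran from 20.3 to 34.3 CPM (median 23.5) in db/+ and from 3.78 to 8.83 CPM (median 6.53) in db/db. The groups did not meet (log2 difference -1.90, SE 0.22, edgeR adjusted p = 0.000972). Sult2a8, a bile acid sulfotransferase, had a median of 238 CPM in db/+ (181 to 313) and 23.1 CPM in db/db (7.22 to 37.4), a log2 difference of -3.57 (SE 0.35, edgeR adjusted p = 0.000394). Slco1a1, an organic anion uptake carrier, had a median of 14.4 CPM in db/+ (4.97 to 141) and 0.379 CPM in db/db (0.113 to 1.13), a log2 difference of -6.22 (SE 0.81, edgeR adjusted p = 0.00142). On the female side, Slc22a27, an organic anion carrier, had a median of 1.52 CPM in db/+ (0.9503 to 2.56) and 18.9 CPM in db/db (11.5 to 24.5), a log2 difference of 3.50 (SE 0.34, edgeR adjusted p = 0.000394). Sult1e1, the estrogen sulfotransferase, ran from 12.6 to 81.6 CPM in db/db and from 0 to 4.502 CPM in db/+ (edgeR adjusted p = 0.002703). The STAT motif TTCNNNGAA was found in 4 of 23 male-biased promoters (17.4%) and 5 of 24 female-biased ones (20.8%), against 8.47% of all promoters. Among members that passed, it was found in 2 of 16 male-biased and 4 of 10 female-biased promoters. The E-box CACGTG, sought likewise in fatty acid synthesis promoters, was found in 1 of 14 (7.14%), near the 7.24% of all promoters.

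The major urinary protein genes, which code for pheromone carriers, took a large share of the control libraries. Summed over 22 genes, because near-identical copies share reads, db/+ libraries held at least 13324.5, a median of 76617 and at most 125125 CPM. The db/db libraries held at least 1264, a median of 1741 and at most 3496 CPM. All 22 fell (21 when 1 library was left out), with a median log2 of -6.62, and 7 of them are also on the male-biased list. The lowest db/+ sum belonged to brazzein 2. The Serpina1 genes, which code for protease inhibitors of plasma, summed to 17768 to 23903 CPM in db/+ and 8164 to 11310.2 CPM in db/db over 6 genes. The 11 Serpina3 genes summed to 7007 to 10531 and 2985 to 4397 CPM, so that these 3 families were separate between genotypes.

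Genes of the zone around the central vein fell more often than they rose. Of 28 pericentral genes, 13 fell (46.4%) and 3 rose (10.7%), with a median log2 of -0.67. Of 26 periportal genes, 4 fell and 4 rose (15.4% each), with a median log2 of -0.01. Cyp2c54, a pericentral P450, ran from 109 to 359.5 CPM (median 297) in db/+ and from 4.098 to 37.8 CPM (median 22.6) in db/db. Both sucrose libraries of db/+ were the lowest there, and above every db/db library (log2 difference -3.55, SE 0.30, edgeR adjusted p = 0.000180). Avpr1a, the vasopressin receptor of hepatocytes, had a median of 11.7 CPM in db/+ (5.904 to 25.9) and 1.73 CPM in db/db (1.17 to 2.37), a log2 difference of -2.85 (SE 0.26, edgeR adjusted p = 0.000271). Notum, a secreted inhibitor of Wnt signals, had a median of 42.01 CPM in db/+ (24.7 to 61.6) and 11.8 CPM in db/db (6.61 to 19.99), a log2 difference of -1.82 (SE 0.26, edgeR adjusted p = 0.002398). Cyp1a2, which oxidises caffeine and arylamines, had a median of 344 CPM in db/+ (235 to 603) and 145 CPM in db/db (85.8 to 167), a log2 difference of -1.44 (SE 0.25, edgeR adjusted p = 0.005000). Rhbg, an ammonia channel of the same zone, rose (log2 difference 1.53, SE 0.24, edgeR adjusted p = 0.00369). Glul, the glutamine synthetase that marks the innermost layer, did not pass (log2 difference -0.15, SE 0.16, edgeR adjusted p = 0.5797), with a median of 589 CPM in db/+ (476 to 788) and 550.4 CPM in db/db (419 to 706). On the portal side, Cdh1, or E-cadherin, had a median of 8.47 CPM in db/+ (6.403 to 11.5) and 1.59 CPM in db/db (0.826 to 3.13), a log2 difference of -2.41 (SE 0.30, edgeR adjusted p = 0.001202). Of the pericentral genes, 7 of 28 (25%) are also on the P450 list, of which they make 15.2%.

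Drug-metabolising enzymes changed in opposite directions within families. Of 46 genes of P450 families 1 to 3, 7 rose (15.2%) and 9 fell (19.6%), beside 7.69% and 6.83% of all genes. Of 52 conjugation enzymes, 13 rose (25%) and 8 fell (15.4%). Among higher members of the P450 list, 4 passed without db/+ sucrose 2, db/+ water 2, db/db sucrose 1, db/db sucrose 2, db/db water 1 or db/db water 2. Cyp2b10, an inducible P450 controlled by the receptor CAR, ran from 4.94 to 53.9 CPM in db/db and from 0 to 4.86 CPM in db/+ (log2 difference 5.38, SE 1.09, edgeR adjusted p = 0.0111). Gstm3, a glutathione transferase, ran from 4.05 to 46.5 CPM (median 11.8) in db/+ and from 203 to 302 CPM (median 255) in db/db. The db/+ library nearest to db/db was db/+ brazzein 2 (log2 difference 4.23, SE 0.52, edgeR adjusted p = 0.00118). The 7 Gstm genes together held 1263 to 1756 CPM in db/+ and 2550.5 to 3468 in db/db. By contrast the 3 Gstp genes held 1081 to 2659 CPM in db/+ and 484 to 954 in db/db. Gstt2, of the theta class, fell by 1.20 on the log2 scale (SE 0.13) and Ugt2b5, a glucuronidation enzyme, by 1.06 (SE 0.11).

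Antioxidant genes were higher where they passed, with 1 exception. Of 31 genes of the oxidative stress response, 7 rose (22.6%) and 1 fell (3.23%). The count of higher members of this list was 4 without db/+ water 1 or db/db sucrose 2. Cbr3, a carbonyl reductase, ran from 0.5199 to 1.24 CPM (median 0.766) in db/+ and from 6.51 to 11.6 CPM (median 9.43) in db/db, wholly apart (log2 difference 3.55, SE 0.26, edgeR adjusted p = 7.31e-05). Nqo1, the quinone reductase that serves as a readout of the regulator NRF2, had a median of 7.76 CPM in db/+ (5.68 to 12.9) and 24.9 CPM in db/db (22.5 to 28.7), a log2 difference of 1.61 (SE 0.20, edgeR adjusted p = 0.001301). Gpx4, which reduces lipid peroxides, had a median of 451 CPM in db/+ (409 to 535) and 709 CPM in db/db (635 to 1008), a log2 difference of 0.75 (SE 0.10, edgeR adjusted p = 0.00182).

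Many chaperones of the endoplasmic reticulum fell. Of 28 genes of this list, 12 fell (42.9%) and 1 rose (3.57%), with a median log2 of -0.57. Sdf2l1, a cofactor of the chaperone BiP, ran from 11.04 to 46.6 CPM (median 16.96) in db/+ and from 2.86 to 4.85 CPM (median 3.998) in db/db. Its highest value came from db/+ water 2, and the other 5 db/+ libraries were also above all db/db libraries (log2 difference -2.37, SE 0.34, edgeR adjusted p = 0.00222). Pdia3, a disulfide isomerase, had a median of 351 CPM in db/+ (300.01 to 503) and 227 CPM in db/db (206 to 242), a log2 difference of -0.70 (SE 0.13, edgeR adjusted p = 0.006297). Dnajb11, another BiP cofactor, had a median of 74.3 CPM in db/+ (66.96 to 117) and 50.7 CPM in db/db (45.8 to 54.7), a log2 difference of -0.69 (SE 0.12, edgeR adjusted p = 0.00668). Xbp1, the regulator of the response, fell by 0.56 on the log2 scale (SE 0.12). Hspa5, which is BiP itself, did not pass (log2 difference -0.67, SE 0.21, edgeR adjusted p = 0.0571), with a median of 547 CPM in db/+ (430.3 to 1069.8) and 382 CPM in db/db (359.9 to 429.99). This list had 6 lower members when db/db water 1 was left out and 7 when db/+ brazzein 1 or db/db water 2 was left out. Of 45 genes of the secretory path, 1 rose (2.22%, under the 7.69% of all genes) and 3 fell (6.67%, near the 6.83% of all genes). Of 25 genes of the integrated stress response, 2 rose and 2 fell (8% each), near the shares of all genes. The integrated stress response had 7 higher members by DESeq2 and 7 with library totals alone.

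**Figure D4:**
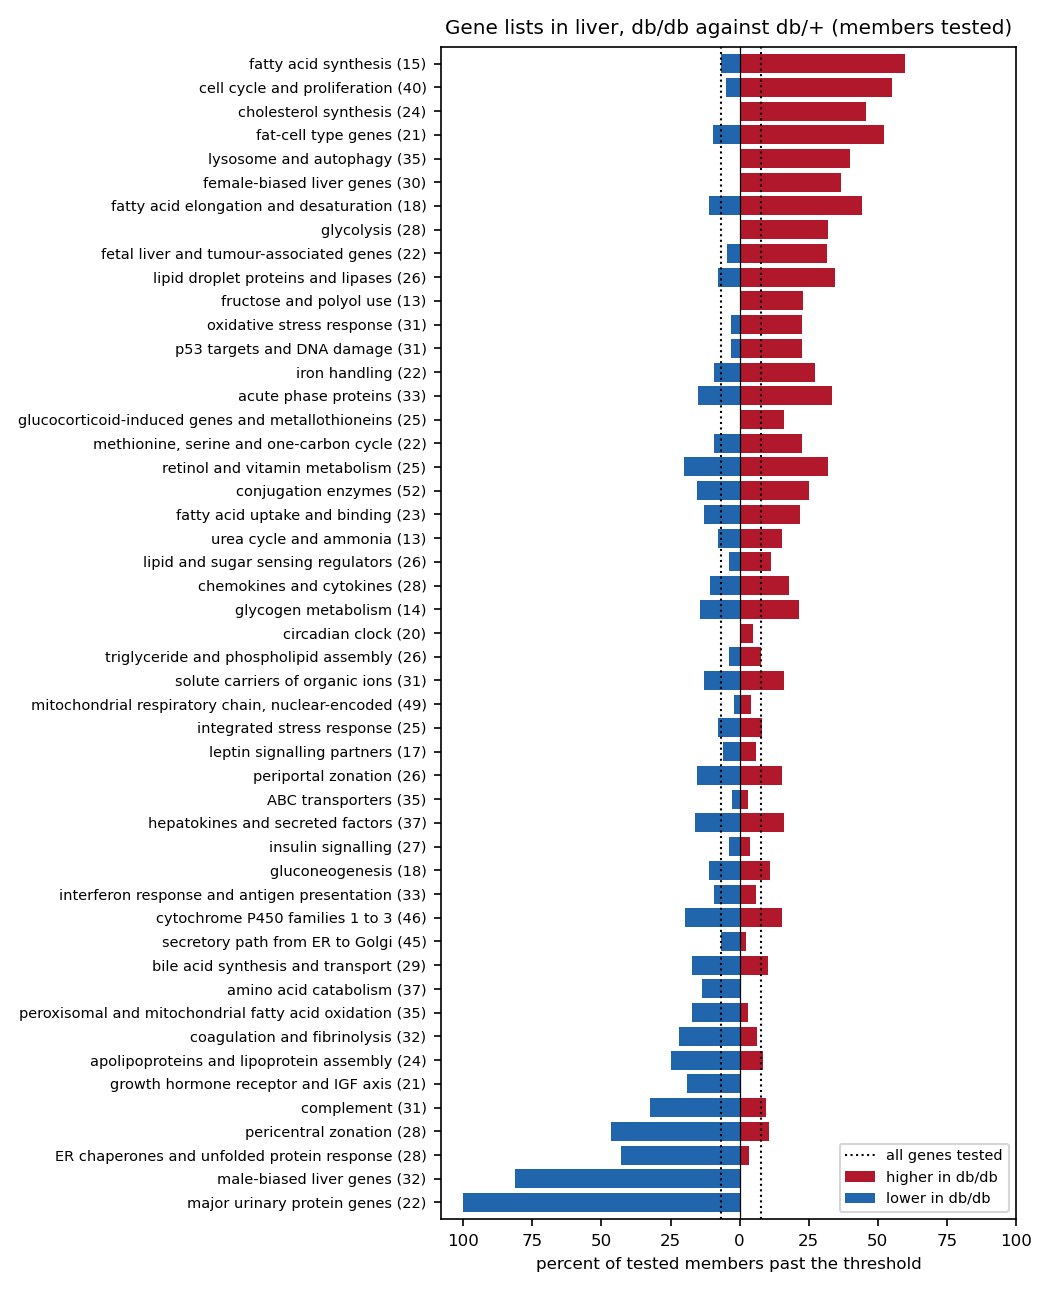
Percent of tested members of each gene list that were higher (red, right) or lower (blue, left) in db/db, with the number tested in brackets. Dotted lines give the same percentages over all 19352 genes, 7.69% higher and 6.83% lower, and lists are ordered by the balance of the 2 directions.

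Proteins that the liver secretes into blood were split by class. Among 33 genes of the acute phase, 11 rose (33.3%) and 5 fell (15.2%). Of 31 complement genes, 3 rose (9.68%) and 10 fell (32.3%), with a median log2 of -0.45. Apcs, serum amyloid P, ran from 70.96 to 108 CPM (median 78.004) in db/+ and from 172 to 200.4 CPM (median 185) in db/db, with tight and separate groups (log2 difference 1.17, SE 0.10, edgeR adjusted p = 0.000242). Saa2, an acute phase apolipoprotein, had a median of 7.56 CPM in db/+ (5.31 to 29.4) and 76.6 CPM in db/db (64.9 to 230.4), a log2 difference of 3.37 (SE 0.44, edgeR adjusted p = 0.00148). Fetub, a protease inhibitor of plasma, had a median of 822 CPM in db/+ (616 to 1009) and 349 CPM in db/db (200.3 to 488), a log2 difference of -1.27 (SE 0.14, edgeR adjusted p = 0.000674). C8a, a chain of the membrane attack complex, had a median of 338 CPM in db/+ (269 to 495) and 76.9 CPM in db/db (50.7 to 125), a log2 difference of -2.11 (SE 0.22, edgeR adjusted p = 0.000563), and C1ra, the protease that starts the classical path, had a median of 208 CPM in db/+ (164 to 224) and 115 CPM in db/db (94.4 to 122), a log2 difference of -0.89 (SE 0.09, edgeR adjusted p = 0.000364). Among lower members of the complement list, 6 passed without db/+ brazzein 1, db/db sucrose 2 or db/db water 1. The count of higher members of the complement list was 5 without db/+ sucrose 2. The acute phase list had 3 lower members when db/+ water 2 was left out.

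Clotting, carrier and hormone genes were taken next. Of 32 coagulation genes, 2 rose (6.25%, under the 7.69% of all genes) and 7 fell (21.9%, beside 6.83% of all genes). F10, the clotting protease at the end of both branches, fell by 0.57 on the log2 scale (SE 0.07) and Kng1, a kininogen, by 0.57 (SE 0.07), both without overlap. Among lower members of this list, 3 passed without db/db sucrose 2 or db/db water 2 and 4 without db/+ sucrose 1, db/+ water 1, db/db sucrose 1 or db/db water 1. Of 37 secreted factors, 6 rose and 6 fell (16.2% each). Rbp4, the retinol carrier of plasma, had a median of 5143 CPM in db/+ (4297 to 6272) and 3039 CPM in db/db (2405 to 3936), a log2 difference of -0.74 (SE 0.10, edgeR adjusted p = 0.00141). Enho, which encodes the peptide adropin, ran from 1.804 to 16.3 CPM (median 5.95) in db/+ and from 0.364 to 0.728 CPM (median 0.648) in db/db, and the groups did not meet (log2 difference -3.43, SE 0.57, edgeR adjusted p = 0.00455).

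Among iron genes, ferritin was higher and hepcidin lower. Hamp, the hormone hepcidin that limits iron entry into plasma, ran from 1032 to 2245 CPM (median 1878) in db/+ and from 318 to 719 CPM (median 376) in db/db. The groups did not overlap (log2 difference -2.01, SE 0.28, edgeR adjusted p = 0.00218). Hjv, the hemojuvelin coreceptor that feeds into Hamp, ran from 3.59 to 21.6 CPM (median 8.99) in db/+ and from 25.7 to 54.3 CPM (median 42.7) in db/db and rose (log2 difference 2.19, SE 0.36, edgeR adjusted p = 0.00424). Cp, the plasma ferroxidase ceruloplasmin, had a median of 465 CPM in db/+ (432 to 528) and 792 CPM in db/db (622 to 908), a log2 difference of 0.71 (SE 0.10, edgeR adjusted p = 0.00237). Of 22 iron genes, 6 rose (27.3%) and 2 fell (9.09%), beside 7.69% and 6.83% of all genes.

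Many cell cycle genes rose. Of 40 tested, 22 rose (55%) and 2 fell (5%), with a median log2 of 1.42. Mcm2, a subunit of the replication helicase, ran from 1.29 to 2.28 CPM (median 1.51) in db/+ and from 4.13 to 5.58 CPM (median 4.96) in db/db. The genotypes were separate (log2 difference 1.57, SE 0.18, edgeR adjusted p = 0.000942). Rrm2, the ribonucleotide reductase subunit, had a median of 2.03 CPM in db/+ (1.17 to 3.21) and 7.96 CPM in db/db (5.803 to 9.42), a log2 difference of 1.94 (SE 0.26, edgeR adjusted p = 0.00175). Ccnb2, a mitotic cyclin, had a median of 0.6701 CPM in db/+ (0.432 to 1.07) and 2.84 CPM in db/db (1.49 to 5.01), a log2 difference of 2.09 (SE 0.32, edgeR adjusted p = 0.00314). Tk1, the thymidine kinase, went against the list with a median of 32.8 CPM in db/+ (23.2 to 49.1) and 13.2 CPM in db/db (11.3 to 16.8), a log2 difference of -1.34 (SE 0.21, edgeR adjusted p = 0.00352). The count of higher members of this list was 13 without db/db sucrose 2 or db/db water 2.

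The promoters of 3 members are printed because they hold both motifs known from cell cycle genes, the CHR element TTTGAA and the box CCAAT. Promoters were found in RefSeq (GRCm38.p6) for 33 of the list's members. The CHR letters were present in 18 of 33 (54.5%, against 18.1% of 27025 promoters), and CCAAT in 26 of 33 (78.8%, against 37.9%), on either strand. Mcm2 lies on the minus strand at chr6:88898731-88899030, Ccnb2 on the minus strand at chr9:70421505-70421804 and Mki67, a nuclear protein of dividing cells, on the minus strand at chr7:135716330-135716629. Each sequence reads 5′ to 3′ along its gene, with matches of the 2 motifs, which do not overlap, in capitals.
Mcm2: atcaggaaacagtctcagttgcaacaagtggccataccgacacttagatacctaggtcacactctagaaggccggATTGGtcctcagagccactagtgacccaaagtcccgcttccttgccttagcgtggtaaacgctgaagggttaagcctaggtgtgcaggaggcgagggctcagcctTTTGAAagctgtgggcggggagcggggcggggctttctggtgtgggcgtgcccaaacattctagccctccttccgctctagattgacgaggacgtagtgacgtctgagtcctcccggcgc
Ccnb2: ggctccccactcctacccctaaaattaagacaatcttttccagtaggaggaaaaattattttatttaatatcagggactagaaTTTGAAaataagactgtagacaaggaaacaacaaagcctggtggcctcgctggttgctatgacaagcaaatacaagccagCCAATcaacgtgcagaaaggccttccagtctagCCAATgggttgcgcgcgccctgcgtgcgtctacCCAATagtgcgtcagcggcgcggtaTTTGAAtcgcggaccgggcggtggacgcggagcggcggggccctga
Mki67: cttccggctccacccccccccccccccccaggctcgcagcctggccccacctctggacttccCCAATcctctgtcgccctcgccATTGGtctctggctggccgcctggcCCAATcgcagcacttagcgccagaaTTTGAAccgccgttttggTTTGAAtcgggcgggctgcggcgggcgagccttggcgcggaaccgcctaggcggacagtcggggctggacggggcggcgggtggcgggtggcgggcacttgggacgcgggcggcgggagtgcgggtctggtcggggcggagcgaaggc

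Genes that respond to DNA damage and stress were examined beside the cell cycle genes. Of 31 p53 targets, 7 rose (22.6%) and 1 fell (3.23%). Cdkn1a, the inhibitor p21 that halts the cell cycle, ran from 1.62 to 15.99 CPM (median 9.71) in db/+ and from 34.4 to 203 CPM (median 55.97) in db/db. The spread among db/db libraries was wide, with the highest values in water 2 and brazzein 2, and no overlap with db/+ (log2 difference 3.19, SE 0.67, edgeR adjusted p = 0.012998). Aen, a p53-induced nuclease, had a median of 11.6 CPM in db/+ (10.1 to 14.9) and 18.3 CPM in db/db (16.7 to 22.5), a log2 difference of 0.71 (SE 0.13, edgeR adjusted p = 0.00638). Atf3, a stress-induced transcription factor, had a median of 1.13 CPM in db/+ (0.708 to 1.79) and 4.58 CPM in db/db (2.94 to 8.28), a log2 difference of 2.09 (SE 0.33, edgeR adjusted p = 0.00336).

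In the lists of lysosome genes and of lipid-associated macrophages, genes that passed were higher. Of 35 lysosome and autophagy genes, 14 rose (40%) and 0 fell (by edgeR, 1 at an unadjusted p under 0.05, and 0 by DESeq2). Their median log2 was 0.51. Ctsd, an acid protease, ran from 266 to 367 CPM (median 328) in db/+ and from 507 to 691 CPM (median 590.2) in db/db. The groups were apart (log2 difference 0.88, SE 0.09, edgeR adjusted p = 0.000550). Hexa, a lysosomal hexosaminidase, had a median of 37.9 CPM in db/+ (34.3 to 51.9) and 74.2 CPM in db/db (68.4 to 82.1), a log2 difference of 0.90 (SE 0.10, edgeR adjusted p = 0.000942). Of 16 genes of lipid-associated macrophages, 9 rose (56.2%) and 0 fell (by edgeR, 0 at an unadjusted p under 0.05, and 0 by DESeq2). Their median log2 was 1.68. Of these 16, 4 are also on the lysosome list. Their summed level was 157 to 331 CPM in db/db and 58.1 to 108 CPM in db/+. Lgals3, or galectin-3, ran from 2.16 to 10.1 CPM (median 3.65) in db/+ and from 18.1 to 42.5 CPM (median 21.8) in db/db (log2 difference 2.59, SE 0.31, edgeR adjusted p = 0.00112), without overlap. Cd63, a tetraspanin of late endosomes, had a median of 5.46 CPM in db/+ (3.64 to 15.8) and 51.1 CPM in db/db (20.5 to 83.8), a log2 difference of 2.81 (SE 0.33, edgeR adjusted p = 0.00106). Itgax, the integrin CD11c, had a median of 0.3895 CPM in db/+ (0.156 to 0.687) and 1.66 CPM in db/db (1.001 to 3.34), a log2 difference of 2.26 (SE 0.40, edgeR adjusted p = 0.00602).

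Markers of resident macrophages and of other liver cells were compared in the same way. Of 17 Kupffer cell and macrophage markers, 5 rose (29.4%) and 0 fell (by edgeR, 1 at an unadjusted p under 0.05, and 1 by DESeq2). Their sum ran from 371 to 675 CPM in db/db and from 243 to 629 CPM in db/+. This list had 2 higher members when db/db sucrose 1, db/db sucrose 2 or db/db water 1 was left out and 3 when db/+ brazzein 1, db/+ sucrose 1, db/+ water 1, db/+ water 2, db/db brazzein 1, db/db brazzein 2 or db/db water 2 was left out. Clec4f, the marker particular to Kupffer cells, did not pass (log2 difference 0.25, SE 0.24, edgeR adjusted p = 0.541), with a median of 32.5 CPM in db/+ (26.9 to 95.6) and 47.3 CPM in db/db (35.5 to 69.7). Of 26 stellate cell and matrix genes, 8 rose (30.8%) and 2 fell (7.69%). The basement membrane collagen Col4a1 had a median of 14.4 CPM in db/+ (9.33 to 19.96) and 36.9 CPM in db/db (26.5 to 52.2), a log2 difference of 1.39 (SE 0.16, edgeR adjusted p = 0.000890). Among higher members of this list, 5 passed without db/+ water 1 or db/db sucrose 2. Of 18 endothelial genes, 2 rose (11.1%, beside 7.69% of all genes) and the other 16 did not pass. This count of 2 ran from 1 to 3 when single libraries were left out, and was 1 for 9 of them. Among the higher genes was Lyve1, a hyaluronan receptor of sinusoids. Lyve1 ran from 2.82 to 9.73 CPM (median 6.66) in db/+ and from 16.4 to 33.5 CPM (median 17.8) in db/db. Its groups were wholly apart (log2 difference 1.83, SE 0.31, edgeR adjusted p = 0.00492). Of 13 T and NK cell markers, 0 passed in either direction (by edgeR or DESeq2, 0 at an unadjusted edgeR p under 0.05), with sums of 3.28 to 7.37 CPM in db/db and 4.53 to 8.21 in db/+. Of 8 cholangiocyte markers, 0 passed as well (by edgeR or DESeq2, 1 at an unadjusted edgeR p under 0.05). Of 10 erythroid markers 5 rose (50%), and their sum ran from 1114 to 3732 CPM in db/db and from 673 to 1223 CPM in db/+. The count of higher members of this list was 0 without db/+ water 1 or db/+ water 2, 1 without db/+ brazzein 1 or db/db sucrose 1, 2 without db/+ sucrose 2 or db/db brazzein 2 and 3 without db/db brazzein 1. The part of these cell type markers in the other results was not tested.

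Of 28 chemokine and cytokine genes, 5 rose (17.9%) and 3 fell (10.7%). Ccl2, which recruits monocytes, had a median of 0.329 CPM in db/+ (0.163 to 0.638) and 1.51 CPM in db/db (0.816 to 2.68), a log2 difference of 2.26 (SE 0.36, edgeR adjusted p = 0.00374), and Ccl6, a chemokine of macrophages, had a median of 2.57 CPM in db/+ (1.27 to 6.59) and 7.26 CPM in db/db (5.61 to 14.6), a log2 difference of 1.58 (SE 0.31, edgeR adjusted p = 0.00963). Cxcl12, which retains leukocytes and is made by stroma and endothelium, had a median of 318 CPM in db/+ (249 to 401) and 198 CPM in db/db (152 to 206), a log2 difference of -0.69 (SE 0.10, edgeR adjusted p = 0.00271). The groups of Ccl2 and Cxcl12 were separate, whereas those of Ccl6 overlapped. Of 33 interferon and antigen presentation genes, 2 rose (6.06%) and 3 fell (9.09%), near the 7.69% and 6.83% of all genes. Of 20 clock genes, 1 rose (5%) and 0 fell (by edgeR, 0 at an unadjusted p under 0.05, and 0 by DESeq2). The interferon list had 1 lower member when db/+ water 2 was left out.

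The genotype difference had the same sign on all 3 drinks in 2799 of the 2811 genes. These genes were called on the difference over the same drinks, so this agreement is largely part of the choice. Whether the genotype difference depended on drink was tested with the interaction of genotype and drink. By edgeR, 12 of 19352 genes passed (0.062%), and 1411 fell under 0.05 before adjustment, against 968 by chance. In 11 of the 12, some library was under 0.1 of its genotype's median although that median reached at least 100 counts, and without such genes 0 passed. Pwp2, a ribosome assembly factor, was listed at 0 in both db/+ brazzein libraries and between 9.75 and 14.8 CPM in the other 10 (edgeR adjusted p = 0.000884). Tent4a, an RNA tailing enzyme, was at 0.0395 and 0.0439 CPM in replicates 1 and 2 of db/db on brazzein and at 6.88 to 15.7 CPM elsewhere (edgeR adjusted p = 0.00369). The remaining gene, Huwe1, a ubiquitin ligase, was at 20.9 and 65.5 CPM in replicates 1 and 2 of db/db on sucrose and at 0.336 to 1.38 CPM in the other 10 (edgeR adjusted p = 0.0461), and it was chosen after its values were seen. Such all-or-none values within 1 group of 2 libraries were found in expected counts whose estimation is not described in the sources used here. The count of 12 became 128 without db/db brazzein 1, 85 and 79 without db/+ brazzein 1 and 2, 43 and 20 without db/+ water 1 and 2, 19 and 36 without db/+ sucrose 1 and 2, 21 without db/db brazzein 2 and 21 without db/db water 1, while it was 15 and 14 without db/db sucrose 1 and 2 and 10 without db/db water 2. It was 381 by DESeq2, and 123 without both brazzein libraries numbered 2, an alternative chosen after seeing the data.

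**Figure D5:**
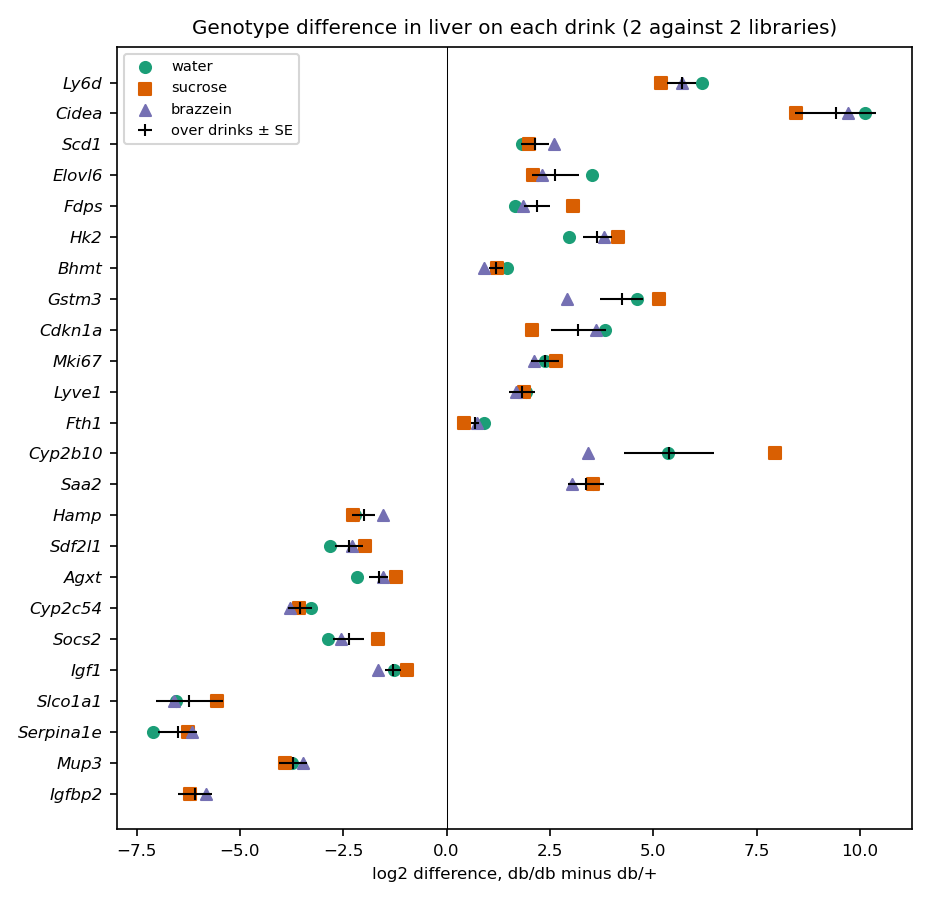
Log2 difference, db/db minus db/+, on water, sucrose and brazzein (2 against 2 libraries each) for 24 genes, with the value over all drinks and its SE as a black cross. For each gene the 3 drinks lie on the same side of 0. The genes were picked from the named genes, so this agreement is in part a result of the choice.

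For 3 further genes the values by drink are given, chosen after they were seen. The log2 difference of Cyp2b10 was 5.37 on water, 7.95 on sucrose and 3.41 on brazzein (interaction edgeR adjusted p = 0.756). The db/+ sucrose libraries it is set against held 0.138 and 0 CPM, so the value on sucrose is a ratio to levels near 0. That of Irs1 was -1.24, -1.16 and -3.16 (edgeR adjusted p = 0.481), and that of Cdkn1a 3.83, 2.08 and 3.62 (edgeR adjusted p = 0.911). None of these 3 interactions passed, with 2 libraries in each group.

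In brain, the same comparison of 6 db/db and 6 db/+ libraries passed 0 of 23653 genes by edgeR (0%), although 3148 fell under 0.05 before adjustment (1183 by chance) and DESeq2 passed 856. Of the 2811 liver genes, 2436 were tested in brain, 415 had an unadjusted brain p under 0.05, and 198 of these had the same direction as in liver. The difference between tissues was tested by a genotype-by-tissue term over 24 libraries, and it passed for 2531 of 25725 genes (9.84%), among them 1822 of the 2811 liver genes (64.8%). The 2811 genes were called on the same liver libraries that enter this term, so a high share among them is in part built in. The same holds for the single genes given next. Hk2 differed by 0.02 on the log2 scale in brain against 3.64 in liver (edgeR adjusted p of the difference 5.11e-06). Fth1 differed by 0.04 against 0.68 (edgeR adjusted p 0.000182), and Socs2 by 0.08 against -2.36 (edgeR adjusted p 0.000566). Bhmt differed by 0.60 in brain and 1.20 in liver, and for it the tissue term did not pass (edgeR adjusted p 0.2295). Of the 2811 liver genes, 375 were not tested in brain because they were too low there. They still entered the tissue test, where liver is set against few brain counts. Not passing the tissue term therefore does not show that a gene differed alike in both tissues.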

How the data were processed

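Per the labels' protocols, TRIzol was used for extraction, poly(A) RNA was selected and the NEBNext Ultra II RNA kit served for library preparation. The submitters' processing notes name bcl2fastq and the build GRCm39. Which aligner, counter and annotation were used is not given in the sources used here. The deposited files hold estimated counts per gene name, as whole numbers and not scaled for depth, and the design had taken them for plain counts. The kit named is not directional, so overlapping genes on opposite strands were not told apart by strand. How reads shared by close copies of a family were assigned is not given either. The 2 db/+ brazzein liver files carry each other's replicate number in their headers, which leaves the group as it is.

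Counts for 55797 gene names entered edgeR 4.0.16 under R 4.3.3. Genes passed filterByExpr by genotype and drink, TMM factors were applied, and quasi-likelihood tests were made of genotype with drink as covariate, of the genotype-by-drink terms, of genotype in brain, and of genotype by tissue over 24 libraries. P-values were adjusted by Benjamini-Hochberg at 0.05. CPM values use TMM-scaled library sizes. No counting interval is given for estimated counts. The steps were tested on simulated data.

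The comparison, the gene lists and the rule for named genes were chosen with earlier results of these data known. The rule took Lepr and 10 neighbours on each side, the 12 higher and 12 lower genes of greatest log2 difference and the 10 and 10 of greatest difference in mean CPM (official symbol, at least 5 CPM, no overlap), up to 5 passing genes and the first 2 of each list, and up to 8 genes by interaction, and the text may leave some out. Some list members are not reported here. List entries were matched by symbol (1578) or by a RefSeq synonym (9), and 1 was not matched. Gene order and promoters came from RefSeq GRCm38.p6, another build than the files', so no coordinates of the counts are given. The labels do not say whether replicate numbers pair the samples. Over 15 pairs of liver groups, deviations of same-numbered libraries correlated at -0.12 to 0.09. Over 6 pairs of liver and brain groups they correlated at -0.024 to 0.040, and 0 pairs were over 0.1. Deviations of 1 mouse need not correlate between tissues, so the values cannot decide whether liver and brain came from the same mice. The genotype-by-tissue test treated the 24 libraries as independent. Alternatives were DESeq2 1.42.0, other scalings, filters and models, a replicate block and leaving out libraries.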

Additional observations from a re-analysis of the deposited data

Results flagged for a closer look

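Each named gene was examined for a library far from the other 5 of its genotype, by the ratio of the gap to the range (critical value 0.625 for 6 samples). Of 236 sets of 6 libraries, 35 held such a library, 18 in db/+ and 17 in db/db. The critical value flags about 1 in 20 independent sets of normally distributed values. The sets here hold CPM without a log, mix 3 drinks and share the same 12 libraries. The count of 35 therefore cannot be set against that rate. The library db/+ brazzein 2 lay far from the others, as the highest for Abcc4 (4.795 CPM), Bhmt (5359 CPM), Cyp2b10 (4.86 CPM), Gstm3 (46.5 CPM), Saa2 (29.4 CPM) and Sult1e1 (4.502 CPM) and the lowest for C1ra (164 CPM) and Irs1 (13.8 CPM). The library db/db brazzein 2 was the highest for Fabp4 (49.1 CPM), Hamp (719 CPM) and Slco1a1 (1.13 CPM) and the lowest for Cxcl12 (152 CPM). Likewise db/db sucrose 1 was the highest for Cyp7b1 (10.2 CPM), Fads1 (531 CPM), Idi1 (51.04 CPM) and Rdh11 (33.1 CPM). Next, db/db sucrose 2 was the highest for H19 (2.69 CPM), Huwe1 (65.5 CPM) and Lgals3 (42.5 CPM) and the lowest for Ugt2b5 (377 CPM). The library db/+ sucrose 1 was the highest for Cyp2u1 (34.3 CPM), Ly6d (3.51 CPM) and Slc27a4 (45.3 CPM). Likewise db/+ water 1 was the highest for Hao2 (0.371 CPM), Sdcbp2 (0.337 CPM) and St3gal6 (0.337 CPM). Next, db/db brazzein 1 was the highest for Eno1 (973 CPM), Mpc1 (349 CPM) and Tkfc (711 CPM). The library db/+ sucrose 2 was the highest for Clec4f (95.6 CPM) and Lgals3 (10.1 CPM). Likewise db/db water 2 was the highest for Cyp4a10 (1840.2 CPM) and Ehhadh (698 CPM). Next, db/+ brazzein 1 was the highest for Slco1a1 (141 CPM). The library db/+ water 2 was the highest for Sdf2l1 (46.6 CPM).

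Genotype differences depended on drink by edgeR's interaction test for 12 genes: Pwp2 (adjusted p = 0.000884), Gm8893 and Tent4a (0.00369 each), Wdr25 and Mef2d (0.00730 each), Kbtbd2, Ufl1, Cdc42se2 and Unkl (0.0135 each), Ddx6 (0.0315), Zfp7 (0.0374) and Huwe1 (0.0461). Liver and brain differed in the size of the genotype difference for 2531 genes.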

How the results depend on the processing

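The genotype count of 2811 genes was 2791 with RLE factors, 2937 with 6 groups, 2718 without drink, 2823 with robust dispersion and 2529 without brazzein libraries. It moved to 4637 by DESeq2, 647 when tested against a fold of 1.5, 339 without water libraries and 916 without sucrose libraries, the last 2 resting on fewer samples. Filters gave 2016 (none), 2417 (stricter) and 3097 (without genes with a library near 0), and 3343 genes passed without both brazzein libraries numbered 2, chosen after seeing the data. Without single libraries the count ran from 1655 to 3416. With library totals alone it was 3105, 75.4% of them higher, against 53% with TMM. Whether replicate numbers pair the samples is not known. With a replicate block the counts were 2520 for genotype, 5 for genotype by drink, 0 in brain and 2494 for tissue. The 12 genes by drink became 381 by DESeq2, 0 without genes with a library near 0, 123 without both brazzein libraries numbered 2, and 10 to 128 without single libraries. The brain count of 0 became 856 by DESeq2 (chosen after seeing the data) and 0 to 3 without single libraries. The tissue count of 2531 ran from 1880 to 3406 without single libraries. The causes were not tested. Of 111 named genes that passed, 48 stayed past the threshold in all alternatives run and 0 changed direction. Among genes that did not pass, the log2 difference of Ghr was 0.064 with library totals alone, 0.0027 without db/db brazzein 2, 0.0022 without both brazzein libraries numbered 2 and 0.013 without brazzein, and ran from -0.16 to 0.0027 without single libraries. That of Glul was 0.016 with library totals alone and 0.11 without brazzein, and that of Huwe1 -1.32 without sucrose, and -0.53 without either db/+ sucrose library to 0.96 without db/db water 1. Each drink rests on 2 libraries per genotype, which limits the precision of differences by drink.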

Other observations

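Of 21 genes typed as fat-cell genes, 11 rose in db/db liver (52.4%) and 2 fell (9.52%), against 7.69% and 6.83% of all genes. Aqp7, the glycerol channel of fat cells, ran from 0 to 0.363 CPM (median 0.215) in db/+ and from 2.49 to 2.99 CPM (median 2.86) in db/db, wholly apart (log2 difference 3.87, SE 0.63, edgeR adjusted p = 0.003997). Fabp5, a fatty acid carrier, had a median of 2.15 CPM in db/+ (1.09 to 4.51) and 5.99 CPM in db/db (4.19 to 9.58), a log2 difference of 1.499 (SE 0.27, edgeR adjusted p = 0.00667). Of the defining fat-cell markers, Adipoq and Lep were too low to be tested, 1 of the other 4 was higher and 1 lower, and their summed level was 0.946 to 5.096 CPM in db/db and 2.704 to 5.02 CPM in db/+. Of 25 genes of retinol and vitamin metabolism, 8 rose (32%) and 5 fell (20%). Aldh1a7, an aldehyde dehydrogenase, ran from 113 to 189 CPM (median 138) in db/+ and from 302 to 398 CPM (median 363) in db/db, without overlap (log2 difference 1.32, SE 0.11, edgeR adjusted p = 0.000207), and Rdh11, a retinal reductase, had a median of 13.95 CPM in db/+ (13.4 to 14.98) and 23.9 CPM in db/db (21.3 to 33.1), a log2 difference of 0.82 (SE 0.12, edgeR adjusted p = 0.00255). Among higher members of this list, 5 passed without db/+ sucrose 2 or db/db water 2. The count of lower members of this list was 2 without db/db sucrose 2 and 3 without db/db water 1.

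Carriers of organic ions changed without a common direction. Of 31 genes, 5 rose (16.1%) and 4 fell (12.9%), beside 7.69% and 6.83% of all genes. Slc17a4, an organic anion exporter, ran from 4.52 to 9.24 CPM (median 7.67) in db/+ and from 25.6 to 39.1 CPM (median 29.3) in db/db (log2 difference 2.05, SE 0.20, edgeR adjusted p = 0.000401), and the ranges did not overlap. Slc13a3, a dicarboxylate carrier, rose by 1.43 on the log2 scale (SE 0.16), and Slc16a10, a carrier of aromatic amino acids, fell by 1.08 (SE 0.17). Of 35 ABC transporters, 1 rose and 1 fell (2.86% each), under the shares of all genes. Of 25 glucocorticoid-induced and metallothionein genes, 4 rose (16%) and 0 fell (by edgeR, 2 at an unadjusted p under 0.05, and 1 by DESeq2). Of 22 fetal liver and tumour-associated genes, 7 rose (31.8%) and 1 fell (4.55%). The imprinted RNA H19 had a median of 0.0858 CPM in db/+ (0.0416 to 0.3099) and 0.692 CPM in db/db (0.4198 to 2.69), a log2 difference of 3.05 (SE 0.56, edgeR adjusted p = 0.00705). This list had 4 higher members when db/+ brazzein 1, db/db sucrose 2 or db/db water 2 was left out.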
